A study of Mus musculus with 8 samples.

Results

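The genes described here are 2395 protein-coding genes of mouse erythroleukaemia (MEL) cells, chosen by the peaks of 2 phosphorylated forms of RNA polymerase II. Each is a RefSeq gene on GRCm38 of 5 kb or longer, on an autosome, X or Y, with a Ser5P peak within 1000 bp of its outer annotated 5′ end in all 4 Ser5P libraries. Each also has a Ser2P peak in all 4 Ser2P libraries between 1000 bp inside that 5′ end and 3000 bp past its 3′ end, a stretch called the gene window here. Genes with an opposite-strand 5′ end within 1000 bp were left out. Of 21536 genes with a known strand, 14670 met the length and neighbour conditions (eligible genes), 5399 of these had the promoter Ser5P, and 2395 had the Ser2P as well. The members are 11.1% of all genes, 16.3% of the eligible ones and 44.4% of those with promoter Ser5P. Both peak sets were used to choose them, so neither the presence of promoter Ser5P nor that of Ser2P in the gene window is a result.

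MEL is an established line of erythroid precursors. The chromatin was profiled by CUT&Tag, in which an antibody brings a transposase to chromatin that it then cuts and tags. The antibodies recognised the C-terminal domain (CTD) of Rpb1, the largest polymerase II subunit, phosphorylated on serine 5 (Ser5P) or serine 2 (Ser2P). Per the labels there were 4 groups of 2 biological replicates: Ser5P in the dCAS control line, Ser5P in the Myrlin KD line, and Ser2P in each of the same lines. Both lines are named as dCAS lines, so the control carries dCAS too. KD is the knockdown of Myrlin, a long noncoding RNA from an enhancer upstream of Myb. The guide, the effector and whether each line is 1 clone are not stated in the labels, so a difference between the lines cannot be told apart from one between clones. The p-values below measure the spread between these libraries.

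The peak lists held 21574 to 25441 Ser5P peaks and 20793 to 32125 Ser2P peaks. Read totals are not part of such lists. A relative depth solved from the authors' fold and p of each peak was 0.568 and 0.641 in the Ser5P control libraries and 0.647 and 0.839 in Ser5P KD. It was 0.783 and 0.438 in Ser2P control and 1.12 and 1.03 in Ser2P KD. Replicate 2 of Ser2P control was thus the shallowest of all 8 libraries and had the fewest Ser2P peaks. Relative depth in Ser2P KD exceeded that in Ser2P control in both replicates. Median peak widths were 486 and 497 bp in Ser5P control, 533.5 and 532 bp in Ser5P KD, 428 and 381 bp in Ser2P control and 478 and 479 bp in Ser2P KD. The part of depth and width in any difference between the lines was not tested. Where a value on peaks scaled to the shallowest library is given, weaker peaks were dropped and kept peaks retained their called width. Such a value is therefore not free of depth or width.

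As background, the CTD is a long tail of repeats that is phosphorylated as polymerase II moves through a gene. Serine 5 is phosphorylated by the Cdk7 kinase of TFIIH close to the start, and this form gathers near promoters. Serine 2 is phosphorylated by P-TEFb, Cdk12 and Cdk13 during elongation, and this form is known to rise towards the 3′ end, where it helps recruit cleavage and polyadenylation factors. In red cell precursors, factors such as Gata1, Tal1 and Klf1 drive the genes for haem, globin and membrane proteins.

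The promoter sequences below show what the starts of members look like, since all were chosen by a promoter peak. They run from 180 bases before to 20 bases after a RefSeq start on GRCm38, 5′ to 3′ on the gene's strand. Capitals mark matches on either strand to 10 motifs of known promoter factors. The TATA box was searched as TATAAA. The CCAAT box was searched by the letters of its name, and the GC box as GGGCGG. For GATA factors the letters were AGATAA and for ETS factors CCGGAAG. For YY1 they were AAGATGG and for the core of the NRF1 site GCGCATGC. The E-box was searched as CACGTG, the CRE as TGACGTCA and the KLF site as CCACACCC. Wbp2, at chr11:116086976-116087175 on the minus strand, had the largest share of its gene window under Ser2P. Phf13, at chr4:151996160-151996359 on the minus strand, was among the 4 highest by that share. Tkt, at chr14:30548951-30549150 on the plus strand, was among the 3 highest by promoter Ser5P. Lcor, at chr19:41482502-41482701 on the plus strand, had a promoter Ser2P peak in both KD libraries and none in the controls. Klf13 (chr7:63938896-63939095, minus strand) and Ptbp1 (chr10:79854252-79854451, plus strand) stand for the erythroid regulators and the splicing factors and were chosen after their values were seen.

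Wbp2: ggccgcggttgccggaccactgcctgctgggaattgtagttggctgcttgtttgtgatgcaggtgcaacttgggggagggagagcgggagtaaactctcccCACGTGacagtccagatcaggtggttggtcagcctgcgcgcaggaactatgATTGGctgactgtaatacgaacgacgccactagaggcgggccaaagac
Phf13: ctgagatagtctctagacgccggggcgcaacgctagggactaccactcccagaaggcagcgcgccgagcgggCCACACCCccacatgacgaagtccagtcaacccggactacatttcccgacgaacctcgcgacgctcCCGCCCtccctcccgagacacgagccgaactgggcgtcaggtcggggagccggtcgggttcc
Tkt: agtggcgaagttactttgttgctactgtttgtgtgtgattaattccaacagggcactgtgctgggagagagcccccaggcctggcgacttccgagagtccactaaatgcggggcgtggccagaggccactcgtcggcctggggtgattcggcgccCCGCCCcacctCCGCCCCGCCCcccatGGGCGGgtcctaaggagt
Lcor: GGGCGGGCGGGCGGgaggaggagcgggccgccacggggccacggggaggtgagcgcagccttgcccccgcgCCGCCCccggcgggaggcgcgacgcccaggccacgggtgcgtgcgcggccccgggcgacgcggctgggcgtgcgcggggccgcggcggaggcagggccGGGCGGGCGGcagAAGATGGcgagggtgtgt
Klf13: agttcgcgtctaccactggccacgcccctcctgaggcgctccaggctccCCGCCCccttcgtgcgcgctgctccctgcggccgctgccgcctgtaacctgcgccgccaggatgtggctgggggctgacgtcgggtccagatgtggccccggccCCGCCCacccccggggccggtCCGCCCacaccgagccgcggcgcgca
Ptbp1: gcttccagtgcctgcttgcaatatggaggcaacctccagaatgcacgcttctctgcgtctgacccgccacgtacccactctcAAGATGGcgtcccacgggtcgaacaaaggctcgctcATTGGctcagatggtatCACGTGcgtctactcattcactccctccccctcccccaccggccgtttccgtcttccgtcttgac

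The Wbp2 promoter held an E-box and a CCAAT box, Phf13 a GC box and a KLF match, Tkt 4 GC boxes and Klf13 3. Those of Lcor were GC boxes, overlapping in places, and 1 YY1 match. Ptbp1 had a CCAAT box, an E-box and a YY1 match.

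Of the 2395 members, 1426 had an entry of the RefSeq promoter table within 100 bp of the outer 5′ end, and these 300-base promoters were rich in G, C and CpG. Their median GC content was 62.3%, with 59.0% in the comparison genes described below (772 promoters) and 55.3% in all protein-coding genes (13537). CpG dinucleotides reached a median of 0.797 of the number expected from base composition, with 0.748 and 0.546 in the other sets. A GC box was found in 75% of member promoters, 65.0% of comparison promoters and 44.5% of all promoters. A TATA box was found in 5.47%, 7.77% and 14.8%, and the GATA motif in 5.54%, 6.74% and 10.6%. The ETS motif was in 19.4% of member promoters, 24.2% of comparison promoters and 12% of all promoters. Members therefore lay above all promoters in GC boxes and ETS motifs and below them in TATA boxes and GATA motifs. They also lay above all promoters in the remaining motifs searched, such as the E-box (13.0% against 7.93%) and the NRF1 core (6.94% against 3.78%). Their ETS share was below that of the comparison genes. So were their shares of the NRF1 core, at 9.2% in comparison genes, and of the CCAAT box, at 42.4% against 48.4%.

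The label of these genes speaks of Ser2P through the gene, and the peak lists did not show that. They hold only called peaks, with median widths of 381 to 479 bp in the Ser2P libraries. Signal too weak or broad to be called is not in such lists, so Ser2P between the peaks was not measured. Over the members, Ser2P peaks covered a median of 2.48% of the gene window on average over the 4 libraries, with a 10th to 90th percentile range of 0.772% to 7.38% and a highest value of 23.6%. Only 120 members were covered over more than 10% of the window, 4 over more than 20% and none over more than 50%. When the gene from 1000 bp inside the 5′ end to the 3′ end was cut into 3 equal segments, 98 members had Ser2P in each segment in all 4 libraries, 381 in 2 segments, 1189 in 1 and 727 in none. The 98 were long genes, with a median length of 101558 bp against 34313 bp for the other members.

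**Figure D1:**
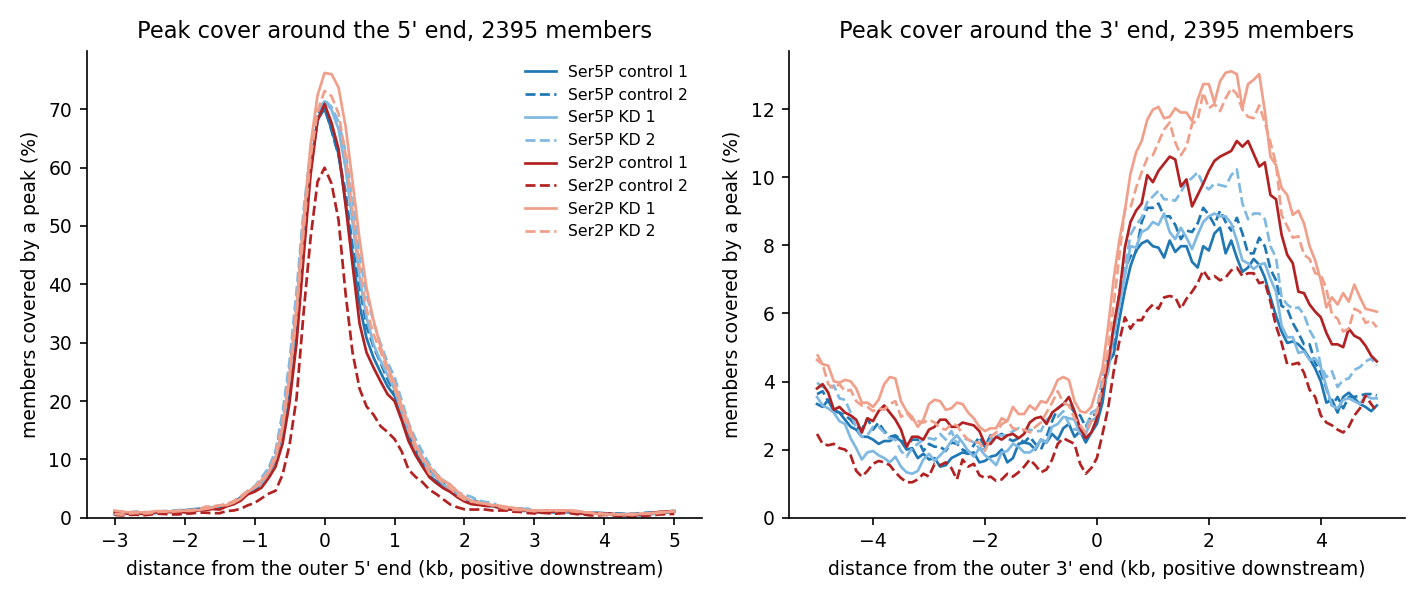
Share of the 2395 members covered by a peak (vertical axis, %) at each distance in kb from the outer 5′ end (left) and the outer 3′ end (right), 1 line per library, with separate vertical scales. Cover of both marks is highest at the 5′ end, where it is 60.0% to 76.2% of members, and is 3.80% or less at the 3′ end itself. For Ser5P the rule required a peak within 1000 bp of the 5′ end, so its height there is largely set by the rule.

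Around the 5′ end the 2 marks had nearly the same shape. Directly at the outer 5′ end, Ser5P peaks covered 70.1% and 70.4% of members in the controls and 71.4% and 71.6% in KD. Ser2P peaks covered 70.9% and 60.0% in the controls and 76.2% and 73.1% in KD, so the shallow control library was the lowest of the 8. At 1000 bp downstream cover was 20.9% to 24.1% for Ser5P and 13.5% to 23.1% for Ser2P, and at 5000 bp it was 0.668% to 1.34% for all 8 libraries. At the 3′ end itself 1.75% to 3.80% of members were covered. At 3000 bp past the 3′ end Ser2P covered 10.4% and 6.93% of members in control and 11.9% and 11.6% in KD, and Ser5P 7.06% to 8.77%. The Ser5P height at the 5′ end is largely set by the rule, which asked for a Ser5P peak within 1000 bp of it. The Ser2P values inside and up to 3000 bp past the gene were used by the rule as well. Both are a description.

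Ser2P peaks of the 4 libraries were merged into sites, and a site with a peak in all 4 libraries is called constant. The members held 3152 constant sites, with a median width of 822 bp, and 3251 pairs of a site and a member, since some gene windows overlap (376 members share part of their window with another member). Pairs whose site reached in from the member's own promoter window were set apart first and made up 16.7%, and 16.2% of them also lay at the start of another gene. Of all pairs a further 17.5% lay within 1000 bp of the start of another gene, 55.5% inside the gene away from any other gene's start and 10.3% past the 3′ end at no other start. In all, 656 pairs (20.2%) lay at another gene's start. Of all pairs past the 3′ end, 58.5% lay at the start of another gene. When Ser2P peaks at other genes' starts were left out, 2001 members still met the rule, and 2189 did when those reaching in from the own promoter were left out. With both kinds left out 1799 remained, or 75.1%.

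Most constant Ser2P sites also carried Ser5P. Of the 3152 sites, 76.0% overlapped a Ser5P peak in all 4 Ser5P libraries, 21.8% in 1 to 3 and 2.25%, or 71 sites, in none. The share with Ser5P in all 4 was 98.2% for sites reaching in from the promoter, 91.4% for those at another gene's start, 67.1% for those inside the gene and 61.9% for those past the 3′ end. The widest site without any Ser5P lay inside Fbxl2, an F-box protein gene, at chr9:113984293-113986932. It was 2640 bp wide and lay 41190 bp from the 5′ end. Others lay inside Taok3 (1324 bp wide) and Tnrc6c (1219 bp), and past the end of Blm, the Bloom helicase gene (1267 bp).

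Some constant sites lay at a second annotated start of the same gene. This was so for 124 pairs outside the promoter window, or 3.81%. At Hnrnpl, which encodes a splicing repressor, the site at chr7:28810292-28811379 was 1088 bp wide, lay 2290 bp inside the outer 5′ end and had Ser5P in all 4 libraries. The outer 5′ end of Hnrnpl had Ser5P cover of 455, 355, 307 and 392 bp (control 1, control 2, KD 1, KD 2, the order used throughout) and no Ser2P peak in any library. At Aff1, a scaffold of the super elongation complex, a 725 bp site at chr5:103753676-103754400 lay 61676 bp inside the gene. The inner starts at both sites are printed to the same length as the promoters above, Hnrnpl at chr7:28810710-28810909 and Aff1 at chr5:103753982-103754181, both on the plus strand.

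Hnrnpl: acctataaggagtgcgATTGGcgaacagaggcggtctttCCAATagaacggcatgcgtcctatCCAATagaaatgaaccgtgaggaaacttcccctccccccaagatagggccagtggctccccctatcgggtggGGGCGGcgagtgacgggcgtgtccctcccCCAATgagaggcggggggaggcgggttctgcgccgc
Aff1: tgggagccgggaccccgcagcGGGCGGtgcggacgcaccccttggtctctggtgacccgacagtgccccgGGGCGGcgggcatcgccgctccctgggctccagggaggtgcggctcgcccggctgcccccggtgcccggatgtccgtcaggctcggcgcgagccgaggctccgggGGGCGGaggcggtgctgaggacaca

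The inner Hnrnpl start held 4 CCAAT boxes and a GC box, and the inner Aff1 start 3 GC boxes.

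The number of constant sites differed widely between members. None was found in 301 members, whose Ser2P peaks lay at different places in different libraries, 1 in 1353 members, 2 to 4 in 700 and 5 or more in 41. Cbfa2t3, which encodes a corepressor of the Tal1 complex, had the most, with 17 constant sites of which 12 had Ser5P in all 4 libraries. Sgms1, a sphingomyelin synthase gene, had 12 and Ankrd11, a chromatin regulator gene, had 11. Bcl11a, a globin gene repressor, had 7.

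The 10 members with the highest Ser2P share of the gene window are shown with their values by library in the plot of the highest members. Wbp2, a WW-domain binding protein gene of 8425 bp, had Ser2P over 25%, 17.7%, 26.5% and 25.1% of its window. Its 1 constant site was 2857 bp wide, began at chr11:116075578 and lay past its 3′ end at the start of Unc13d, so that this site is outside Wbp2 itself. Rpl3, a ribosomal protein gene, had 18.9%, 13.9%, 27.7% and 28.4% in the 2 control and 2 KD libraries. Its constant site, 2351 bp wide, also lay past the 3′ end, at no start of another gene. Cbfa2t3 is 74197 bp long and had Ser2P cover of 19950, 12978, 17873 and 16786 bp.

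Of these 10 members, 6 had a constant site at another gene's start and all 10 had a constant site past or at the 3′ end. Phf13 (a chromatin-binding PHD finger protein), Impdh2 (an enzyme of guanine nucleotide synthesis), Dhrs11 and Tm7sf2 (a sterol reductase) had theirs at the starts of Thap3, of Dalrd3 and Ndufaf3, of Mrm1 and of Znhit2. Mnt, a Max-binding repressor, had 2755 to 3898 bp of Ser2P, with constant sites both inside and past the gene. Slc48a1, a haem transporter, had 2248, 1917, 1927 and 1842 bp, and its control and KD values overlapped. Replicate 2 of Ser2P control was the lowest library in 9 of the 10.

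**Figure D2:**
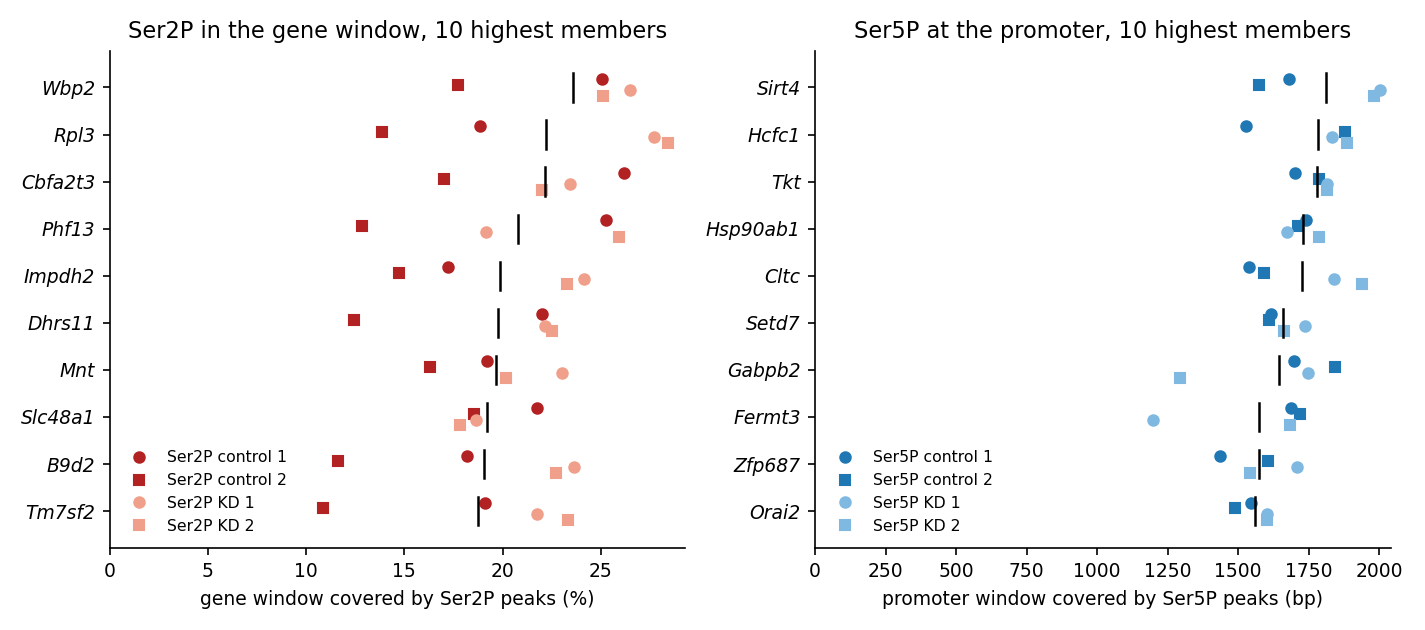
Left, percent of the gene window covered by Ser2P peaks in each Ser2P library for the 10 members with the highest mean. Right, bp of the promoter window covered by Ser5P peaks in each Ser5P library for the 10 members with the highest mean, with the black bars at the means. On the left the square of Ser2P control 2 is lowest in 9 of 10 genes; on the right most values lie between 1435 and 2001 bp.

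The 10 members with most promoter Ser5P had Ser5P over most of the promoter window. Sirt4, a mitochondrial sirtuin gene, led with 1681, 1575, 2001 and 1981 bp, and Hcfc1, a cofactor of chromatin modifiers, had 1529, 1878, 1833 and 1885 bp. Tkt, the transketolase of the pentose phosphate pathway, had 1701, 1787, 1813 and 1815 bp, and Hsp90ab1, a chaperone, had 1741, 1711, 1672 and 1788 bp. Both KD values lay above both control values in 5 of the 10 and below them in 1, Fermt3 lying at 1687, 1720, 1198 and 1685 bp. Over all 9799 genes with promoter Ser5P these shares were 25.6% and 10.8%, and since the 10 were chosen by this measure nothing is read from their count. Over all members the promoter Ser5P cover ranged from 13.25 to 1809.5 bp around a median of 748.5 bp, each a mean over 4 libraries.

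Promoter Ser5P was steadier between libraries than Ser2P in the gene, a comparison in which both the mark and the window differ. Relative depth ran from 0.438 to 1.12 in the Ser2P libraries and from 0.568 to 0.839 in the Ser5P libraries. The part of each was not tested. The median ratio of the highest to the lowest library was 1.37 for promoter Ser5P and 2.37 for Ser2P in the gene window. The 4 values lay within 1.5 times of each other in 1489 members for promoter Ser5P and in 317 members for Ser2P. Replicate 2 of Ser2P control gave the lowest Ser2P value in 1803 members, or 75.3%.

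Longer members had more Ser2P cover in bp and less as a share of the gene window. Members of 5 to under 20 kb (709 genes) had a median of 740.5 bp, or 5.43% of the gene window. Those of 20 to under 50 kb (755 genes) had 886 bp, or 2.63%, and those of 50 kb or longer (931 genes) had 1324 bp, or 1.28%. The longest member, Ctnna3, an alpha-catenin gene of 1573570 bp, had 734, 682, 736 and 752 bp of Ser2P, or 0.0461% of its window. Camta1 (802246 bp), a calmodulin-binding transcription activator gene, had 1904 to 3915 bp and Exoc4 (724890 bp), an exocyst subunit gene, had 944 to 2839 bp.

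At the length threshold the members just inside were Srsf5, a splicing factor gene of 5013 bp, and Pygo2 of 5018 bp. Srsf5 passed on 16, 4, 16 and 38 bp of Ser2P in its gene window, while Pygo2 had 321 to 1243 bp. Just outside lay Ubald2 (4984 bp), with 923 to 1663 bp of Ser2P, and Arsa (4949 bp), with 541 to 1057 bp. In all, 185 shorter genes met the peak conditions and 587 more met all conditions except that on opposite-strand starts.

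Members were found on every chromosome except Y. Their share of the eligible genes ran from 8.78% on X to 25% on chromosome 19 and 23.7% on chromosome 11.

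The erythroid identity of the cells was checked on 12 markers. Of these, Tal1, Nfe2, Zfpm1 and Tfrc are members. Gata1, Alas2 and Slc4a1 had no Ser5P peak at the outer annotated 5′ end in any library, and Gfi1b had one in 3 of 4. Gata1, Alas2 and Gfi1b nevertheless had Ser2P in the gene window in all 4 libraries, and Slc4a1, the band 3 gene, in 1. Klf1 and Epor, which are shorter than 5 kb, had both marks, Klf1 with promoter Ser5P of 1580, 1124, 1702 and 1503 bp. The globin gene Hbb-bs had promoter Ser5P of 454 to 517 bp and no Ser2P in its window, and Hba-a1 had promoter Ser5P in 2 of 4 libraries. Among eligible markers of other cells, 0 of 18 lymphoid, 0 of 8 myeloid and 0 of 17 non-haematopoietic markers were members, and 1 of 11 megakaryocyte and mast cell markers was, Itga2b, an integrin gene.

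**Figure D3:**
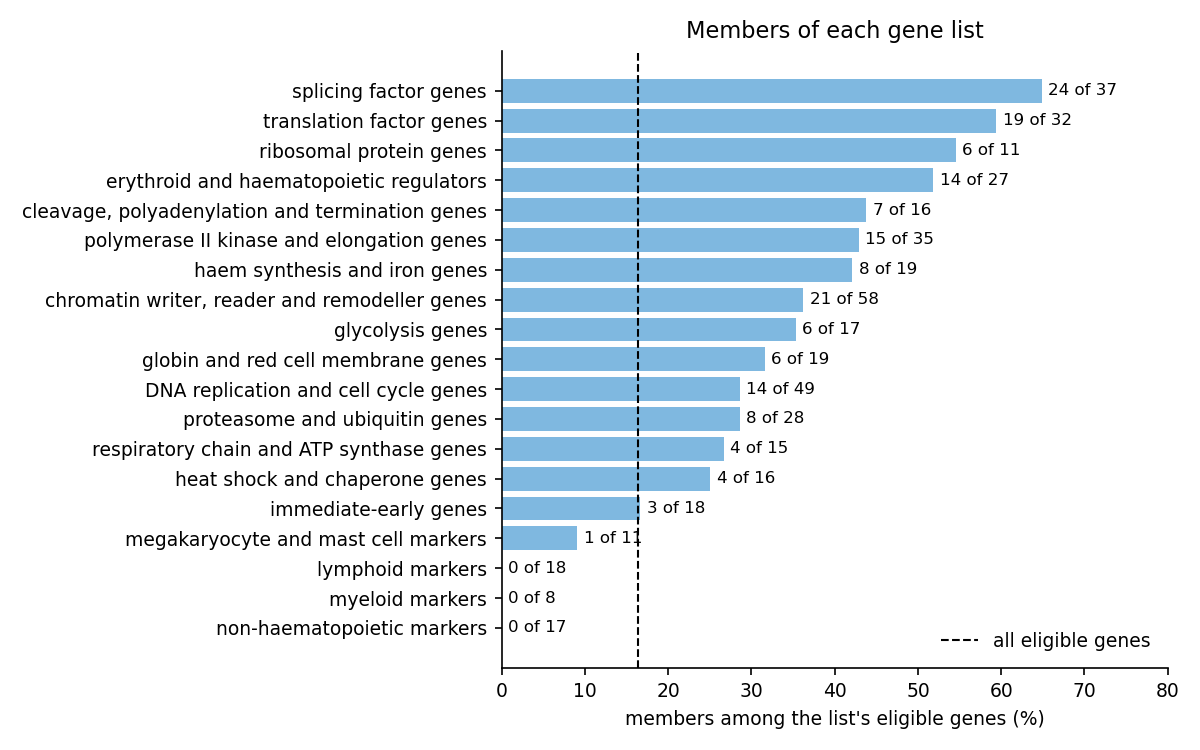
Percent of each gene list's eligible genes that are members (bars), with the counts beside them and the share over all eligible genes, 16.3%, as the dashed line. Among eligible genes with promoter Ser5P the share is 44.4%, which is not drawn. Splicing factor genes stand highest with 24 of 37, and lymphoid, myeloid and non-haematopoietic markers have none.

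The erythroid and haematopoietic regulators held 14 members among 27 eligible genes, and among 17 with promoter Ser5P. Their median Ser2P cover was 2357 bp, or 5.06% of the gene window, against 945 bp and 2.48% over all members, and 5 of the 14 had Ser2P in every segment of the gene. Cbfa2t3 has been described above. Zfpm1, the Gata1 cofactor known as Fog1, had 9850, 3997, 9982 and 8631 bp of Ser2P in a gene of 56007 bp and Ser5P of 6235 to 7454 bp in the same window. Bcl11a had 6328, 3297, 7928 and 5315 bp and Ikzf1, the Ikaros gene, 6589, 3048, 5645 and 6555 bp. In all 3 the second control library was the lowest.

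Other members of the list were Tal1, Nfe2, Spi1, Klf3, Klf13, Zbtb7a, Bach1, Foxo3, Jak2 and Hbs1l. Tal1, a basic helix-loop-helix master regulator, had only 805, 320, 44 and 574 bp of Ser2P. Its single constant site, 1113 bp wide, reached in from its own promoter window. Nfe2, a basic leucine zipper activator of globin genes, had 1054, 262, 1491 and 747 bp. The 14 regulators held 53 constant sites, of which 38 had Ser5P in all 4 libraries.

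Haem and iron genes had 8 members among 19 eligible. Slc11a2, the iron transporter DMT1, had 3420, 1751, 2260 and 2833 bp of Ser2P with only 233, 228, 184 and 31 bp of Ser5P at its outer 5′ end. Abcb10, a mitochondrial transporter of red cell precursors, had 1195 to 2785 bp, and Tfrc, the transferrin receptor, 771 to 1936 bp. Of the globin and membrane genes 6 of 19 eligible were members. Sptb, erythroid beta-spectrin, had 1733 to 3802 bp, Epb41, a membrane skeleton protein, 1550 to 3772 bp, and Rhd, the Rhesus protein, 310 to 1990 bp.

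Genes of the CTD kinases and elongation factors had 15 members among 35 eligible, with a median Ser2P cover of 1211 bp. They include the serine 5 kinase gene Cdk7 and the serine 2 kinase genes Cdk12 and Cdk13. Cdk12 had 1214, 386, 3001 and 1066 bp of Ser2P and 0, 571, 1002 and 1006 bp of Ser5P in the gene window. Aff1 had 4187, 3164, 3893 and 3513 bp, Ell, another elongation complex subunit, 2181 to 3262 bp, and Nelfa, a subunit of the pausing factor NELF, 486 to 2848 bp. Cleavage, polyadenylation and termination genes had 7 members among 16. Wdr33, which binds the polyadenylation signal, had 2140 to 3226 bp, Scaf8, a CTD-binding protein, 480 to 1923 bp, the termination exonuclease Xrn2 413 to 1482 bp and the Integrator subunit Ints3 268 to 1433 bp.

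Splicing factor genes had the largest share of members among eligible genes of these lists, 24 of 37. Among those with promoter Ser5P the share was 24 of 33, or 72.7%. That was below 82.4% for erythroid and haematopoietic regulators and 75% for globin and membrane genes. The splicing factor members had a median Ser2P cover of 864 bp, below that of all members, and none had Ser2P in each segment. In 10 of the 24 a constant site lay past the 3′ end at no other gene's start, a larger share than the 13.5% of all members. Ptbp1, a splicing repressor, had 1803, 1400, 2239 and 2259 bp of Ser2P, with a 2259 bp constant site past its end. Hnrnpa3 had 1744, 1052, 2201 and 2076 bp. Rbm39 had 1695, 817, 1865 and 2429 bp, and its constant site lay at the starts of Nfs1 and Romo1. Both KD values lay above both control values in these 3 genes, as in 42.7% of all members and 33.9% of the 10650 genes with Ser2P in the gene window, and the reverse held in 2.8% and 3.48%. These 3 were named for their high Ser2P cover, and nothing is read from their direction.

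Translation factor genes had 19 members of 32 eligible. Eef2k, the kinase of elongation factor eEF2, had 728 to 3020 bp of Ser2P, the initiation factor genes Eif4g1 and Eif3h 1041 to 2048 bp and 696 to 2725 bp, and Etf1, the release factor, 545 to 1790 bp. Of 77 ribosomal protein genes 65 are too short for the rule, and 6 of the 11 eligible were members, with a median of 11.1% of the gene window covered. At Rpl19 the outer 5′ end had Ser5P cover of 265, 250, 125 and 64 bp, and its gene window 1437, 561, 1339 and 1336 bp of Ser2P. Rps15a had 591 to 1525 bp and Rpl24 721 to 1121 bp.

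Chromatin genes had 21 members of 58 eligible. Nsd3, a histone methyltransferase gene of 118067 bp, had 2851, 2434, 3603 and 4452 bp of Ser2P and Ser2P in every segment in all 4 libraries. Arid1a, a subunit of the BAF remodeller, had 1698 to 3116 bp, the acetyltransferase gene Kat6b 1704 to 2478 bp and the methyltransferase gene Kmt2c 755 to 3765 bp. Replication and cell cycle genes had 14 of 49, among them Tyms, E2f1, the origin licensing gene Cdt1 and Pola1, the DNA polymerase alpha gene of 327622 bp. Proteasome genes had 8 of 28, respiratory chain genes 4 of 15, glycolysis genes 6 of 17, heat shock genes 4 of 16 and immediate-early genes 3 of 18, the last near the 16.3% of all eligible genes. Over all eligible genes with promoter Ser5P, 44.4% were members. Of such genes, members made up 34.1% for replication and cell cycle, 33.3% for proteasome, 30% for immediate-early and 28.6% for heat shock genes. The share was 56.8% for chromatin genes, 54.5% for glycolysis genes and 50% for respiratory chain genes. Pkm, the pyruvate kinase gene, had 2868, 2246, 3275 and 2260 bp of Ser2P. Hsp90ab1 had 1056, 12, 1613 and 1009 bp, so that its membership rests on 12 bp in replicate 2 of Ser2P control. These lists were not tested for enrichment.

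Myb itself is not a member. It had promoter Ser5P of 334, 432, 339 and 445 bp and Ser2P in its gene window of 1527, 0, 545 and 945 bp, the missing value being that of the shallow control library. Of its 9 neighbours in the list, Hbs1l, Ahi1 and Map3k5 are members. Hbs1l, a translation rescue factor gene, had 1255, 903, 1562 and 1890 bp of Ser2P, Ahi1, a cilium gene, 1887, 1700, 2260 and 1745 bp, and Map3k5, the stress kinase ASK1, 2916, 1211, 2378 and 2267 bp. The groups did not overlap in Hbs1l, where both KD values were higher, as in 42.7% of members, and they overlapped in Ahi1 and Map3k5. Sgk1, Pde7b, Mtfr2 and Bclaf1 had Ser2P in the gene window in all 4 libraries but no Ser5P peak at the outer 5′ end.

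Where Ser5P and Ser2P lie within members is given as a description with no test, since the rule asked for Ser5P at the promoter and for Ser2P in the gene window and so treats the antibodies unequally by position. Of the bp covered in the gene window, 31.7% ± 0.314 (SD, n = 4) of Ser5P and 26.6% ± 0.854 of Ser2P lay in the first segment of the gene. The last segment held 22.5% ± 0.649 of Ser5P and 26.3% ± 1.62 of Ser2P. The difference was -5.08 percentage points in the first segment and 3.75 in the last. The middle segment held 22.7% ± 1.03 and 23.9% ± 0.626. The 3000 bp past the 3′ end held 23.0% ± 1.47 and 23.2% ± 1.26, in 4.64% of the window. Within the control libraries alone the first-segment difference was -4.64 points and within KD -5.52, and the last-segment differences were 2.60 and 4.90. For the stretch past the 3′ end the signs differed, 1.60 in control and -1.30 in KD.

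**Figure D4:**
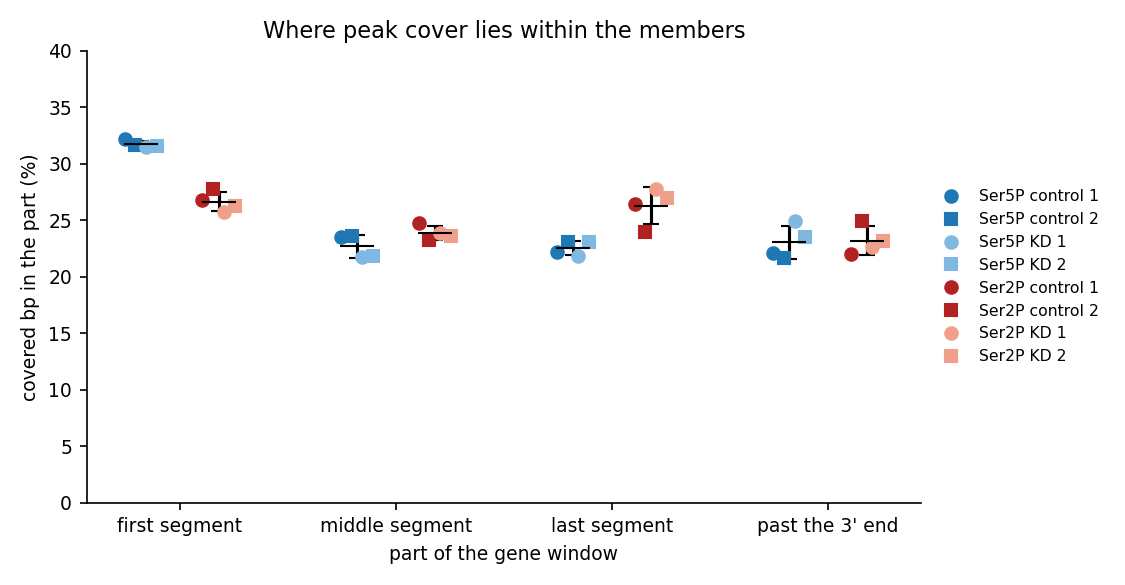
Percent of the bp covered in the members' gene windows (vertical axis) that lies in each of 3 equal segments of the gene and in the 3000 bp past the 3′ end, 1 point per library, with mean and SD of the 4 libraries of each antibody. The Ser2P points lie below the Ser5P points in the first segment and above them in the last segment.

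Next, the members were compared with 1092 eligible genes that had promoter Ser5P in all 4 libraries and Ser2P in the gene window in none, called comparison genes. The 2 sets were separated by Ser2P, and Ser5P inside the gene was not used directly. It is still tied to the rule, since 76.0% of the members' constant Ser2P sites had Ser5P in all 4 libraries. Required promoter Ser5P peaks can also run into the gene window. The difference below is therefore partly set by the choice of genes and is not an independent measure. A Ser5P peak in the gene window was found in 92.7% ± 2.3 of members and 8.63% ± 1.78 of comparison genes (SD, n = 4 libraries). The difference was 84.1 percentage points ± 0.939 and had the same sign in all 4 libraries (two-sided exact sign-flip permutation test, p = 0.13, the smallest that 4 libraries allow, adjusted 0.13). Since members are longer, with a median of 36052 bp against 14446.5 bp, the comparison was repeated within length classes. For genes of 5 to under 20 kb the shares were 94.5% and 7.03%, for 20 to under 50 kb 92.9% and 12.2%, and for 50 kb or longer 91.2% and 10.9%. Ser5P peaks covered 15.9 bp per kb of gene window in members and 1.18 bp per kb in comparison genes. In all 4 Ser5P libraries together, 1974 members (82.4%) and 3 comparison genes had such a peak.

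**Figure D5:**
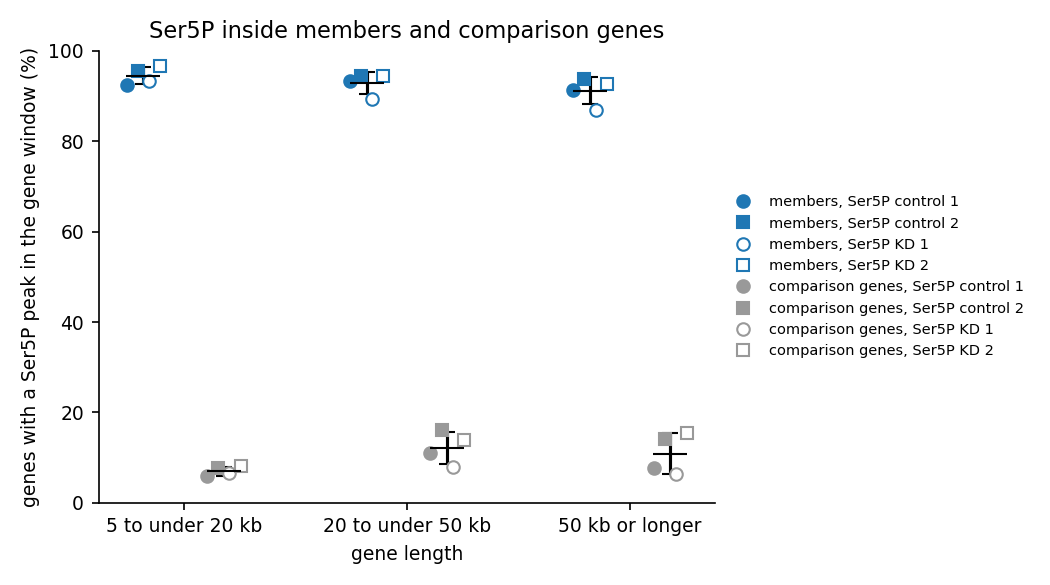
Percent of genes with a Ser5P peak in the gene window (vertical axis, 0 to 100) in 3 gene length classes, for members (blue) and comparison genes (grey), 1 point per Ser5P library with mean and SD. In every class all member points lie above 86% and all comparison points below 17%.

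A promoter Ser5P peak in all 4 libraries was required of both sets, so its amount is given as a description. Ser5P covered 764 ± 36.0 bp of member promoters and 733 ± 31.7 bp of comparison promoters, a difference of 31.0 bp ± 4.48. Within 500 bp of the 5′ end the difference turned to -16.3 bp, and it was -0.107 bp when the stretch past the 3′ end was dropped from the gene window. Ser2P peaks were found at 96.8% ± 3.31 of member promoters and 96.1% ± 3.77 of comparison promoters, a difference of 0.666 points ± 0.565 (exact permutation p = 0.13). Comparison genes thus had Ser2P at the start nearly as often as members, 966 of the 1092 having it in all 4 libraries. A Ser2P peak crossing the point 1000 bp inside the 5′ end counts in both windows and keeps a gene out of the comparison set. The difference in promoter Ser2P is therefore partly set by the choice of genes and is not an independent measure. Only 6 members had Ser2P at the promoter in no library, Hnrnpl and the immediate-early gene Fosb among them, and 22 had Ser5P in the gene window in none, among them Exoc4 and Pald1.

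Control and KD were then compared over the members, first for Ser2P at promoters. A Ser2P peak was found at 98.1% and 91.9% of member promoters in the 2 control libraries and at 99% and 98.1% in KD. The mean was higher in KD by 3.61 percentage points (exact permutation test, p = 0.33, the smallest that 2 against 2 libraries allow, adjusted 0.667). Ser2P covered 701 and 527 bp of the promoter window in control and 829 and 786 bp in KD, a difference of 194 bp (exact permutation p = 0.33, adjusted 0.667). The groups did not overlap in covered bp, and in the share with a peak they were separated by 1 gene, with 2349 members in control replicate 1 and 2350 in KD replicate 2. The Ser2P KD libraries were also the deeper ones. On peaks scaled to the shallowest Ser2P library, an alternative chosen after seeing the data, the differences were 2.71 percentage points, where the groups overlapped (exact permutation p = 0.667), and 183 bp, and without replicate 2 of Ser2P control they were 0.688 points and 109 bp. Scaling only dropped whole peaks, so the 183 bp still holds the peak widths called at the original depths.

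For single genes, both KD libraries exceeded both controls in promoter Ser2P at 1246 members, or 52.2% of the 2389 with a peak in any Ser2P library, with 46.1% over all genes. The reverse held at 42 members (1.76%), with a background of 2.21%. A promoter Ser2P peak in both KD libraries and neither control was found at 13 members (background 2.35% of genes), and one in both controls and neither KD library at 1 member (background 0.428%). That 1 was Fgf11, a fibroblast growth factor homologue gene, with 652, 649, 0 and 0 bp. Among the 13 were Lcor, a nuclear receptor corepressor gene, with 0, 0, 1068 and 688 bp, Ppcdc, an enzyme of coenzyme A synthesis, with 0, 0, 557 and 530 bp, the zinc finger gene Zfp846 with 0, 0, 401 and 431 bp, the lipid kinase gene Pik3c2a with 0, 0, 658 and 362 bp, and Pald1 with 0, 0, 356 and 336 bp. The count of 13 is 0.544% of members. Without the first Ser2P control library it was 167 and without the second 37.

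Ser5P inside members showed no such direction. A Ser5P peak lay in the gene window of 92.3% and 94.5% of members in control and 89.6% and 94.4% in KD, a difference of -1.42 percentage points (exact permutation p = 0.667, adjusted 0.889). The covered bp averaged 983 and 1101 in control and 930 and 1110 in KD (difference -22.1 bp, exact permutation p = 1, adjusted 1). The ranges overlapped in both measures, and both differences turned positive without the first KD library. Both KD libraries exceeded both controls at 405 members (17.1%, background 15.2% of genes), and the reverse held at 452 (19%, background 15.6%). A Ser5P gene peak in both controls and neither KD library was found at 15 members (0.632%, background 3.14%). The reverse was found at 13 (0.548%, background 2.35%). Nrxn2, a neurexin gene, had 1178, 715, 0 and 0 bp, Usp47, a deubiquitinase gene, 361, 1023, 0 and 0 bp, and Dars, the aspartyl-tRNA synthetase gene, 352, 726, 0 and 0 bp. In the other direction Psmb7, a proteasome subunit gene, had 0, 0, 1446 and 563 bp, Tnip2, an inhibitor of NF-κB signalling, 0, 0, 493 and 653 bp, and Prodh, proline dehydrogenase, 0, 0, 495 and 748 bp. Leaving out the second KD library raised the count of 15 to 133.

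Last, the amounts of the marks that chose the members were compared gene by gene with limma on log2(covered bp + 100), with p-values adjusted by Benjamini-Hochberg over all genes with a peak. Presence in all 4 libraries was required of members, which limits how far their values can differ. For Ser2P in the gene window no gene passed an adjusted p of 0.05 in limma, so members called higher or lower in KD were 0 each, with a background of 0% of 10650 genes in each direction. At an unadjusted limma p under 0.05, 166 members were higher in KD (6.93%, background 8.18%) and 3 lower (0.13%, background 1.12%). The median log2 difference was 0.43 over members and 0.50 over all genes tested, where members needed a peak in all 4 libraries and other genes in 1. With each library centred on its median over genes with a peak in all 4 libraries, the members' median was -0.01. All members belong to that set by the rule, so this value is largely set by the centring and nothing is read from it. The unadjusted split over all genes went from 871 higher and 119 lower to 552 and 244 with the same centring. The member with the smallest p was Kmt2e, a chromatin reader gene, with mean cover of 578 bp in control and 2997 bp in KD, a log2 difference of 2.19 (SE 0.241, limma adjusted p = 0.482), which did not pass. It was chosen after its values were seen.

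For promoter Ser5P no gene passed in either direction either, again 0 members with a background of 0% of 9799 genes in limma. At an unadjusted limma p under 0.05, 161 members were higher in KD (6.72%, background 6.8%) and 24 lower (1%, background 2.19%). The median log2 difference was 0.06 over members and 0.06 over all genes, and centring took the split over all genes from 666 higher and 215 lower to 428 and 338. For Ser2P in the gene window, the median log2 difference over members was 0.39 without the first Ser2P KD library and 0.47 without the second. For promoter Ser5P it was 0.08 without the first Ser5P KD library. Members were chosen anew each time and needed a peak in every remaining library, which limits how far their values can differ.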

How the data were processed

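CUT&Tag of Ser5P and Ser2P Rpb1 was analysed in 8 MEL libraries, 2 per group. The authors deposited a peak list per library, called separately. The software named, per the submitters' processing notes, was MACS2 2.2.7.1 and deepTools 3.3.1, with Picard 2.21.4 and SAMtools 1.9, and Bowtie2 2.3.5 with cutadapt 2.7, on GRCm38, with parameters and control not given in the sources used here. The deposited lists give each peak's fold enrichment (a ratio) and the −log10 of its p-value and q-value. These are the authors' own values and were used only to rank or filter peaks within a list and to solve a relative depth.

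Peak presence (overlap of 1 bp) and covered bp were computed in the promoter and gene windows of RefSeq genes. Gene strand came from the RefSeq promoter table of the same build (17492 genes), then from GENCODE by symbol (3649) or synonym (395), and 351 genes without a strand were left out, as were 24 to 30 peaks per library on other sequences. Promoter sequences are from RefSeq, GRCm38. Libraries were compared by two-sided exact permutation tests, members with comparison genes by exact sign flips over 4 libraries, with Benjamini-Hochberg adjustment. Covered bp were also fitted as log2(bp + 100) with limma 3.58.1 in R 4.3.3 over all genes with a peak in 1 library or more, which was tested on simulated data. Covered bp of called peaks moves with depth, and peak lists hold no counts, so no count model was used.

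Named genes were the 10 highest by Ser2P share and by promoter Ser5P, up to 4 per gene list by Ser2P bp, up to 5 per direction and call, the 3 longest, those at the length threshold, and Myb with its flanking genes. Some genes that this rule names are not reported here. Others are said to be chosen afterwards or stand with their counts of sites. The members and the gene lists were chosen with earlier results of these data known. Alternatives were a stricter q, equal peak numbers, 200 bp of cover, other windows, pseudocounts, filters and scaling, each library left out, and, added after seeing the data, scaling to the shallowest library and strand from GENCODE alone.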

Additional observations from a re-analysis of the deposited data

How the results depend on the processing

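The number of members was 1530 with peaks of −log10 q of at least 5, between 1841 and 2383 under the other planned and added settings, and between 2440 and 2909 with a library left out, the highest without replicate 2 of Ser2P control. The KD minus control difference in Ser5P gene peaks turned to 0.399 points with equal peak numbers and ran from -3.75 to 0.833 with a library left out, and that in bp turned to 36.4 and ran from -112 to 68.2. For position, the middle segment of the gene differed by 1.46 points without the stretch past the 3′ end, and the last segment by 3.26 to 4.74 with a library left out. Past the 3′ end the difference was 1.79 with equal peak numbers, -0.0902 with 200 bp of cover, -0.224 with the 500 bp promoter window and -0.307 to 0.802 with a library left out. Members minus comparison genes reversed to -16.3 bp (500 bp window) and -0.107 bp (no stretch past the 3′ end) for promoter Ser5P, to -0.253 points (−log10 q of at least 5) for promoter Ser2P peaks and to -1.78 bp (500 bp window) for promoter Ser2P bp. The cause was not tested.

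Members with promoter Ser2P in controls alone numbered 0 with the stricter q, the 500 bp window or no stretch past the 3′ end, 2 with equal peak numbers or 200 bp of cover, 3 when scaled to the shallowest library, and 1 to 17 with a library left out. Those with it in KD alone numbered 22 with equal peak numbers, 26 with the 500 bp window and 14 to 167 with a library left out. For Ser5P in the gene window, control-only members were 9 with equal peak numbers or scaling and 19 to 133 with a library left out, and KD-only members 14 to 73. In limma without a filter, 1 gene was called higher and 1 lower for Ser2P, and 6 higher, of which 3 were members, and 2 lower for promoter Ser5P. With a library left out, 0 to 1094 genes were higher and 0 to 1 lower for Ser2P, and 0 to 250 higher for Ser5P. A lone library was then assumed to vary like the other group.

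Same-numbered replicates shared only a number: the correlation of their deviations was 0.0259 for Ser2P and 0.0250 for Ser5P. With the replicate block limma called 0 genes in either direction for both marks, with 821 higher and 44 lower for Ser2P and 615 and 180 for Ser5P at an unadjusted p under 0.05.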
